A study of Mus musculus with 12 samples.

Results

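The genes described here are *G0s2*, *Lyplal1*, *Elovl7*, *Scara5*, *Dgkh*, *Ptp4a3*, *Dreh* and *A830052D11Rik*. These 8 of the 45777 genes in the table were picked because their mRNA differed in the same direction between livers labelled WT and livers labelled *Gna12* KO, both with vehicle and with acetaminophen (APAP). The label differences of these genes are therefore given as a description, with no test. RNA-sequencing was done on 12 livers of C57BL/6 mice aged 10 to 12 weeks, with 3 livers in each of 4 groups: WT with vehicle, WT with APAP, KO (genotype label Gα12-/-) with vehicle and KO with APAP. APAP was given once by intraperitoneal injection at 300 mg/kg after an overnight fast, and livers were taken 6 h later. WT mice were littermates of matched age. *Gna12* encodes the alpha subunit of a G12 protein, which relays signals from receptors at the cell surface, and the labels give no tissue restriction of its loss. Read totals ran from 49737950 to 69566079 per liver.

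The *Gna12* counts did not follow the label. They were 3550, 1659 and 3172 in WT livers with vehicle, and 4003, 3422 and 2472 in livers labelled KO with vehicle. After APAP they were 1193, 4373 and 3178 in WT livers and 2489, 3023 and 3248 in livers labelled KO. The log2 difference, WT minus KO label, was -0.19 with vehicle (edgeR adjusted p = 0.878) and -0.05 after APAP (edgeR adjusted p = 0.993). Counts per gene do not show which exons the reads came from, and the gene shares exon sequence with *Amz1* on the opposite strand, so "KO label" is used throughout for the genotype as given. The liver identity was clear, with summed hepatocyte markers between 68235 and 130730 counts scaled to library size (CPM). WT APAP liver 1 stood apart: its summed erythroid markers reached 17361 CPM against 253 to 749 CPM in the other 11 livers, and its normalization factor was 0.75. Results that rest on it are given with and without it.

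The protein-coding members have varied roles. G0S2 inhibits adipose triglyceride lipase, the enzyme that starts the breakdown of stored triglyceride in lipid droplets. LYPLAL1 belongs to the family of acyl-protein thioesterases, ELOVL7 lengthens fatty acyl chains in the endoplasmic reticulum, and DGKH (diacylglycerol kinase eta) turns diacylglycerol into phosphatidic acid. SCARA5 is a class A scavenger receptor that takes up ferritin, and PTP4A3 (also called PRL-3) is a phosphatase that binds the CNNM magnesium transporters. *Dreh* and *A830052D11Rik* are long noncoding RNAs. In the liver, triglyceride stores, acyl chain length and iron handling all shift with feeding and injury.

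Promoter sequences of the members were searched, and the members were chosen to keep the same direction of label difference across the treatments. Under the WT label 6 were higher and 2 lower. RefSeq promoter windows, from 250 bases before to 50 bases after a transcript start in build GRCm38.p6, were found for 5 members: *G0s2*, *Lyplal1*, *Elovl7*, *Dgkh* (3 windows) and *Dreh*. *Scara5*, *Ptp4a3* and *A830052D11Rik* had none in the table. The 6 motifs below were searched on both strands: the E-box CACGTG, the cAMP response element TGACGTCA, the TATA box TATAAA, the GC box GGGCGG, the CCAAT box CCAAT and the DR1 repeat AGGTCANAGGTCA. Windows of 30 bases are shown 5′ to 3′ on the gene's strand, with the motif in capitals. These are the 2 E-boxes, both at *Dgkh*, and 1 GC box for each of the 3 other members that held one.
Dgkh, E-box, chr14:78732862-78732891, minus strand: tggcaggggggtCACGTGcgtcccgggccg
Dgkh, E-box, chr14:78629322-78629351, minus strand: tgcccccagtgcCACGTGgccccacactgg
G0s2, GC box read on the other strand, chr1:193273189-193273218, minus strand: ccgctgccactcCCGCCCcgcttctctttc
Lyplal1, GC box, chr1:186117347-186117376, minus strand: cgtcagatttagGGGCGGggcgccaggcac
Elovl7, GC box, chr13:108214242-108214271, plus strand: tacccgcggcgaGGGCGGcagcgggagagg
The GC box was found in 4 of the 7 windows, 1 for each of 4 members, against 35.7% of all 32851 promoter windows. Those of *G0s2* and *Elovl7* held 66.7% and 74.0% G and C, against a median of 52.7% over all windows, and that of *Lyplal1* 52.3%. The E-box was found in 2 of 7 windows, both of *Dgkh*, against 7.15% of all windows, and the CCAAT box in 1, also of *Dgkh*, against 37.4%. The cAMP response element, the TATA box and the DR1 repeat, found in 1.79%, 13.6% and 0.0396% of all windows, were in no member's window. The GC box stood in *G0s2* and *Lyplal1*, which were higher under the WT label, and in *Elovl7* and *Dgkh*, which were lower. With windows for only 5 members, whether a motif goes with a direction cannot be told.

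Levels differed widely among members. By mean TPM, a unit scaled to library size and transcript length, over the 12 livers, *G0s2* was highest at 127, followed by *Lyplal1* at 11.5 and *Scara5* at 9.08. *Ptp4a3* (1.57), *Dreh* (1.01), *Dgkh* (0.602), *A830052D11Rik* (0.375) and *Elovl7* (0.198) were low. The ranges over livers of *Lyplal1* (6.06 to 18.2 TPM) and *Scara5* (1.52 to 31.3 TPM) overlapped, as did those of each other pair of neighbours in this order except *G0s2* and *Lyplal1*. The lowest *G0s2* value, 26.0 TPM, lay above the highest *Lyplal1* value.

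**Figure D1:**
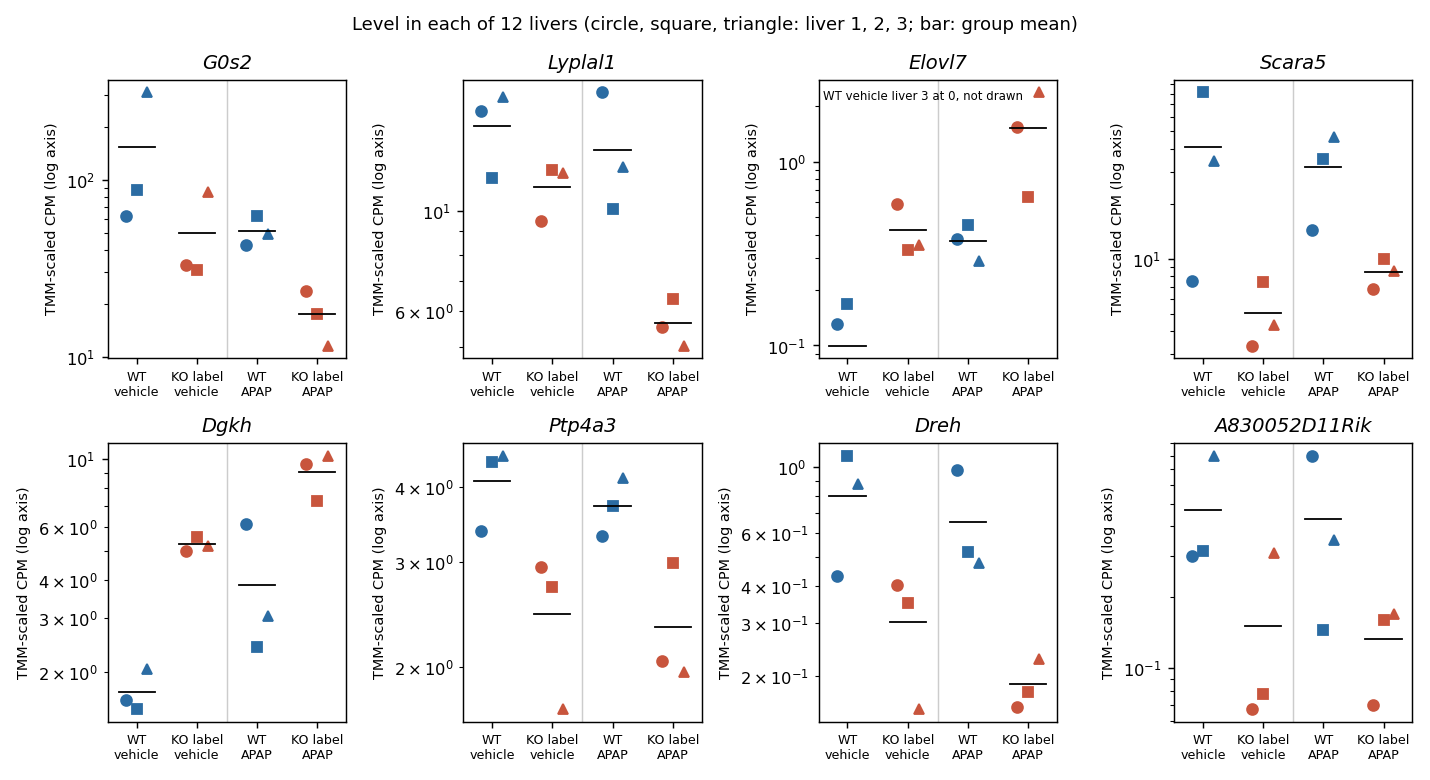
Level of each of the 8 genes in each liver, in CPM scaled by TMM over the 12 libraries, on a log axis that differs between panels. Points are livers 1 (circle), 2 (square) and 3 (triangle), bars are group means of 3 livers, and blue is the WT and red the KO label. In *Dgkh* and *Ptp4a3* the colours separate within each treatment, while *A830052D11Rik* overlaps in both on this scale.

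*G0s2*, the lipase inhibitor, was higher in livers labelled WT. With vehicle its counts were 3329, 4194 and 15622 in WT livers and 1976, 1593 and 3866 in livers labelled KO. The groups overlapped in CPM, since KO label liver 3 (85.4 CPM) lay above WT liver 1 (62.5 CPM), and WT liver 3 (312 CPM) was the highest of all 12. The log2 difference, WT minus KO label, was 1.63 ± 0.65 (SE, n = 3 per group), and it was 0.59 without WT vehicle liver 3. After APAP the counts were 2153, 4678 and 3114 in WT livers and 1347, 1095 and 813 in livers labelled KO. The CPM groups were then apart, at 42.8 to 62.1 against 11.6 to 23.5, with a log2 difference of 1.56 ± 0.28. In TPM, WT APAP liver 1 (50.5) fell below the highest liver labelled KO (55.0).

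*Scara5*, the ferritin receptor, showed the widest label difference of the 8 with vehicle. Its counts with vehicle were 402, 3880 and 1727 in WT livers and 199, 384 and 196 in livers labelled KO. WT livers thus spanned about an order of magnitude, and the lowest (7.55 CPM) lay just above the highest liver labelled KO (7.47 CPM). After APAP the counts were 721, 2648 and 2902 against 393, 624 and 602. The lowest of the WT livers was again a single one, WT APAP liver 1. The log2 difference was 3.03 ± 0.76 with vehicle and 1.92 ± 0.39 after APAP, and it was 2.27 after APAP without WT APAP liver 1.

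*Lyplal1*, the thioesterase family member, differed less with vehicle than after APAP. With vehicle its counts were 886, 565 and 894 in WT livers and 566, 634 and 548 in livers labelled KO. These groups overlapped in CPM (11.8 to 17.8 against 9.50 to 12.3), with a log2 difference of 0.45 ± 0.19. After APAP its counts were 922, 761 and 786 against 317, 399 and 353. All 3 WT livers then lay above the livers labelled KO, at 10.1 to 18.3 against 5.02 to 6.38 CPM, and the log2 difference was 1.29 ± 0.26. It was 1.00 without WT APAP liver 1. Whether the difference itself changed between the treatments was not tested, since the choice of the genes used both contrasts.

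*Dgkh*, the diacylglycerol kinase, was lower in livers labelled WT. With vehicle its counts were 86, 72 and 102 in WT livers and 298, 284 and 235 in livers labelled KO. The groups were far apart, at 1.51 to 2.04 against 5.00 to 5.53 CPM, and the spread within each was small. After APAP the counts were 309, 181 and 192 against 551, 454 and 720. WT APAP liver 1 (6.14 CPM) was closest to the livers labelled KO, the lowest of which had 7.26 CPM. The log2 difference was -1.60 ± 0.20 with vehicle and -1.21 ± 0.36 after APAP, and -1.73 after APAP without WT APAP liver 1. In TPM, *Dgkh* was the member whose 6 WT livers (0.148 to 0.426) all lay below the 6 livers labelled KO (0.483 to 1.48).

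*Elovl7*, the fatty acid elongase, was also lower in livers labelled WT, at counts near the detection limit. With vehicle its counts were 7, 8 and 0 in WT livers and 35, 17 and 16 in livers labelled KO. The count of 0 allows up to 3 counts, or 0.0599 CPM, in that liver, and *Elovl7* passed the filter on low counts in this comparison only through the livers labelled KO. After APAP the counts were 19, 34 and 18 against 88, 40 and 167. The groups were apart in both treatments, with log2 differences of -2.07 ± 0.79 and -2.01 ± 0.52.

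*Ptp4a3*, the phosphatase, showed a small difference in both treatments. Its counts with vehicle were 180, 210 and 226 in WT livers and 175, 140 and 77 in livers labelled KO. After APAP they were 167, 280 and 260 against 117, 187 and 138. Each WT liver lay above each liver labelled KO in CPM, with the lowest WT value at 3.32 and the highest KO label value at 2.99 across both treatments. The log2 difference was 0.74 ± 0.26 with vehicle and 0.69 ± 0.27 after APAP. In TPM the groups overlapped after APAP, where WT APAP liver 1 (1.12) lay below 2 livers labelled KO (1.15 and 1.70).

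The noncoding RNAs were low. *Dreh* had counts of 23, 52 and 44 in WT livers and 24, 18 and 7 in livers labelled KO with vehicle, and 49, 39 and 30 against 9, 11 and 16 after APAP. In CPM its 6 WT livers (0.432 to 1.09) lay above the 6 livers labelled KO (0.155 to 0.403), with log2 differences of 1.38 ± 0.50 and 1.81 ± 0.47. *A830052D11Rik* had counts of 16, 15 and 40 against 4, 4 and 14 with vehicle, and 40, 11 and 22 against 4, 10 and 12 after APAP. In CPM its groups overlapped in both treatments, while in TPM they were apart with vehicle. The log2 differences were 1.67 ± 0.71 and 1.66 ± 0.71. With vehicle the difference was 1.04 without WT vehicle liver 3 and 2.66 without KO vehicle liver 3, and after APAP it was 0.86 without WT APAP liver 1. Livers labelled KO with at least 10 counts numbered 2 in each treatment for *Dreh*, and 1 and 2 for *A830052D11Rik*, against 3 WT livers each time. The filter on low counts scales its cutoff to library size, so it does not follow a count of 10 exactly. *Dreh* with vehicle and *A830052D11Rik* in both treatments needed WT livers, where they were higher, to pass it.

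**Figure D2:**
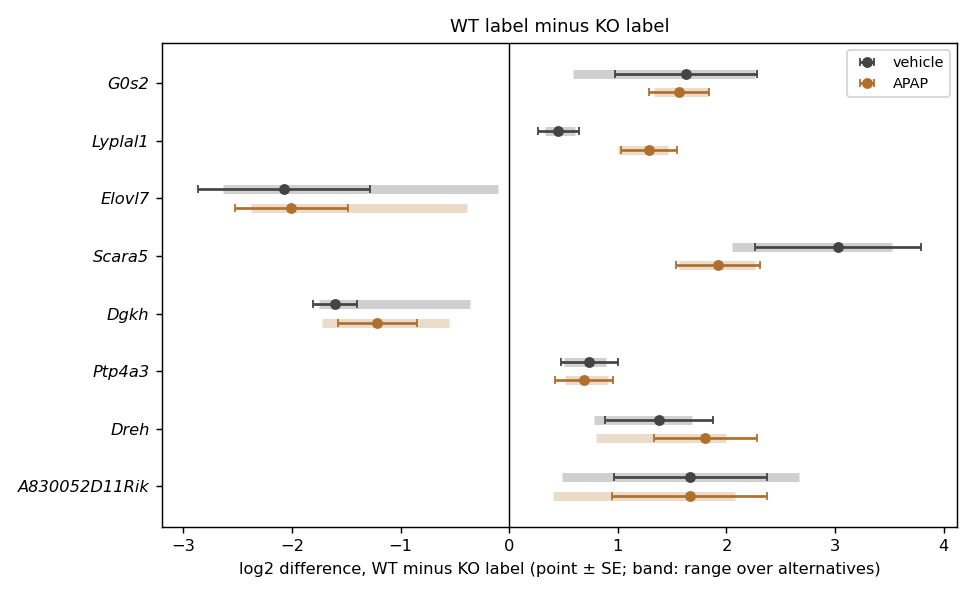
Log2 difference, WT minus KO label, of each of the 8 genes with vehicle (grey) and after APAP (orange). Points with bars are edgeR estimates ± SE from 3 livers per group, and pale bands span the alternatives tried. The values of 6 genes lie to the right of 0 and 2, *Elovl7* and *Dgkh*, to the left, in both treatments and over all bands.

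How cleanly the labels separated depended on the scale. In CPM the groups did not overlap in 5 of the 8 genes with vehicle, where 14% of 15262 tested genes did not overlap, and in 7 of 8 after APAP, against 8.73% of 16174 tested genes. In CPM 5 of 8 were apart in the same direction in both treatments, against 0.767% of the 15000 genes tested in both. In TPM the same counts were 5 of 8 with vehicle (8.87% of tested genes), 4 of 8 after APAP (17%) and 2 of 8, *Elovl7* and *Dgkh*, in both (1.21%). Without WT APAP liver 1, 7 of 8 were apart after APAP on each scale, against 16.3% of tested genes in CPM and 21.7% in TPM for these 2 WT livers and 3 livers labelled KO. Over all 6 WT livers against all 6 livers labelled KO, *Ptp4a3* and *Dreh* were apart in CPM (0.293% of genes) and *Dgkh* in TPM (0.387%). Since the genes were picked on these contrasts, these shares describe the choice. Of all 15000 genes, 49.6% had the same sign in both treatments.

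**Figure D3:**
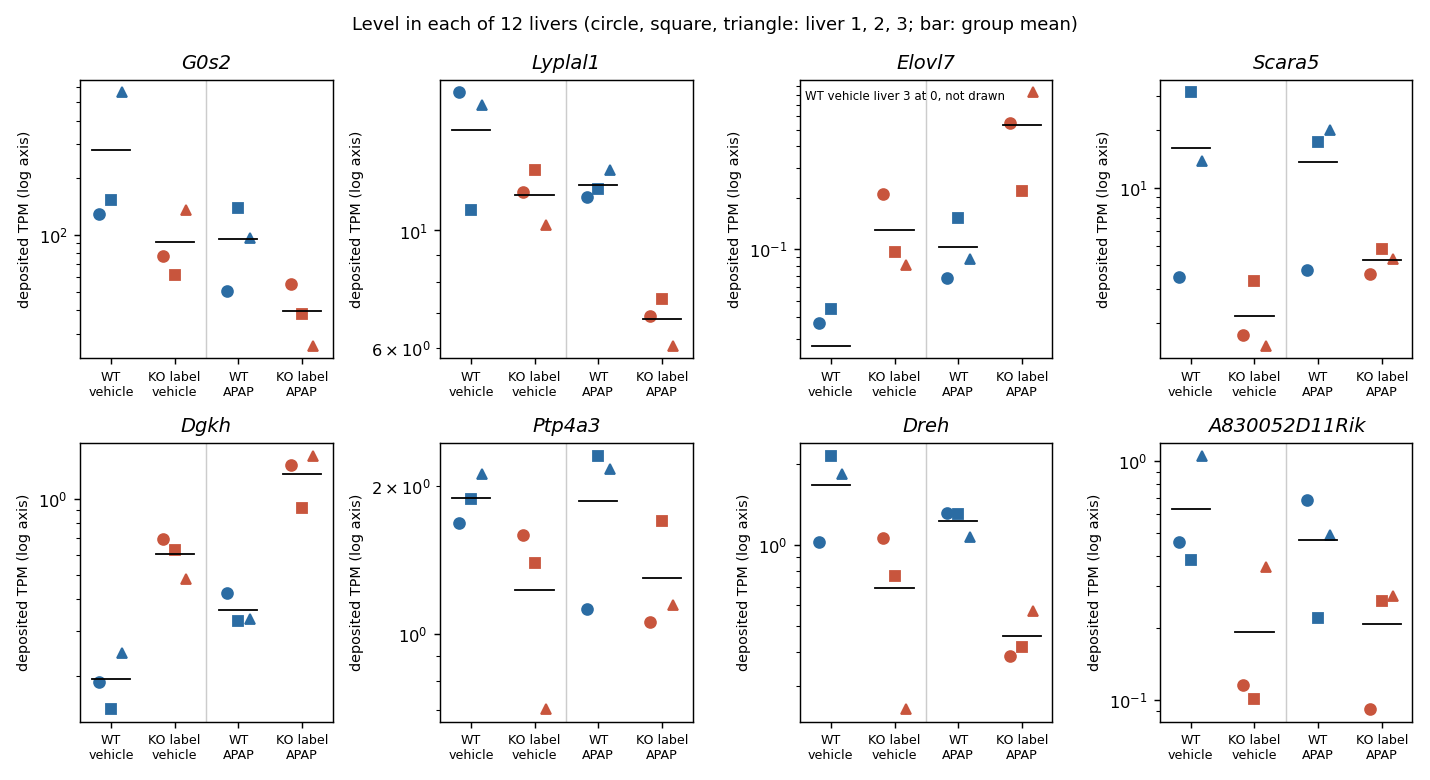
The same 12 livers in TPM as deposited, on a log axis that differs between panels, with symbols and colours as in the CPM plot. After APAP, the WT circle (liver 1) of *G0s2*, *Scara5* and *Ptp4a3* falls among the livers labelled KO, and without it the groups of these 3 genes do not overlap.

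The response to APAP was not the criterion of choice, and it was tested by edgeR's quasi-likelihood test with Benjamini-Hochberg adjustment over all genes. The values of the same livers entered the choice through the label differences, so these tests are not independent of it. In livers labelled KO, 4 of the 7 members tested passed the threshold, against 22.6% of 15665 genes: *G0s2* and *Lyplal1* fell (9.6% of all genes were called lower), and *Elovl7* and *Dgkh* rose (13% were called higher). *A830052D11Rik*, with 4 to 14 counts, did not pass the filter on low counts. DESeq2 called 5 of the 7, these 4 and *Scara5*, against 27.6% of all genes. In WT livers 0 of 8 members passed, against 2.05% of 15693 genes. There were 2 members, *G0s2* and *Dgkh*, with an unadjusted p under 0.05 there, against 18% of all genes, and DESeq2 called 1, *G0s2*, against 9.03%.

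*G0s2* fell by 1.50 on the log2 scale in livers labelled KO (SE 0.42, edgeR adjusted p = 0.0357), from 31.0 to 85.4 CPM with vehicle to 11.6 to 23.5 CPM after APAP. The groups did not overlap. In WT livers the log2 fold change was -1.57 (SE 0.57, edgeR adjusted p = 0.200, DESeq2 adjusted p = 0.0359). WT livers ran from 62.5 to 312 CPM with vehicle and from 42.8 to 62.1 CPM after APAP, just apart. Leaving out 1 vehicle liver moved each estimate: it was -0.56 in WT livers without WT vehicle liver 3 and -0.86 in livers labelled KO without KO vehicle liver 3 (edgeR adjusted p = 0.0819). The call in livers labelled KO was also lost without KO APAP liver 2 (edgeR adjusted p = 0.0795) or KO APAP liver 3 (edgeR adjusted p = 0.111).

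*Lyplal1* fell by 0.99 on the log2 scale in livers labelled KO (SE 0.16, edgeR adjusted p = 0.00508), the call that held in all 13 alternatives tried. Its level went from 9.50 to 12.3 CPM with vehicle to 5.02 to 6.38 CPM after APAP, with no overlap. In WT livers its log2 fold change was -0.17 (SE 0.27, edgeR adjusted p = 0.778), and the ranges of both groups overlapped. Without WT APAP liver 1 it was -0.45 (edgeR adjusted p = 0.351).

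*Dgkh* rose by 0.80 on the log2 scale in livers labelled KO (SE 0.17, edgeR adjusted p = 0.0125), from 5.00 to 5.53 CPM to 7.26 to 10.2 CPM, without overlap. This call held in 12 of 13 alternatives. In WT livers the log2 fold change was 1.18 (SE 0.40, edgeR adjusted p = 0.176), with the groups also apart in CPM, and it was 0.66 without WT APAP liver 1 (edgeR adjusted p = 0.261). *Elovl7* rose by 1.83 in livers labelled KO (SE 0.50, edgeR adjusted p = 0.0334), with 16 to 35 counts with vehicle and 40 to 167 after APAP. In WT livers its log2 fold change was 1.89 (SE 0.86, edgeR adjusted p = 0.303), where it passed the filter only through the APAP livers. The calls of *G0s2* and *Elovl7* in livers labelled KO each held in 7 of 13 alternatives, and that of *Elovl7* was lost without KO APAP liver 1 or 3 or KO vehicle liver 2 or 3, with edgeR adjusted p from 0.0752 to 0.119.

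The remaining members did not pass with edgeR in either label. *Scara5* had a log2 fold change of 0.76 in livers labelled KO (SE 0.29, edgeR adjusted p = 0.0951) and of -0.36 in WT livers (SE 0.75, edgeR adjusted p = 0.839), which was -0.02 without WT APAP liver 1. In livers labelled KO it passed in 3 of 13 alternatives: DESeq2 (adjusted p = 0.0488), a fit that pairs livers by replicate number and a fit without KO vehicle liver 2 (1.15, edgeR adjusted p = 0.0264). *Ptp4a3* had values of -0.07 (SE 0.28, edgeR adjusted p = 0.889) and -0.13 (SE 0.24, edgeR adjusted p = 0.812). *Dreh* had values of -0.69 (SE 0.47, edgeR adjusted p = 0.325) and -0.28 (SE 0.50, edgeR adjusted p = 0.805). In WT livers *A830052D11Rik* had a value of -0.14 (SE 0.71, edgeR adjusted p = 0.941). Without WT APAP liver 1 the WT values were -0.06 for *Ptp4a3*, -0.68 for *Dreh* and -0.93 for *A830052D11Rik*. The WT and KO label responses use separate livers, and the difference between them was not tested, because it is the same quantity as the change of the label difference.

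**Figure D4:**
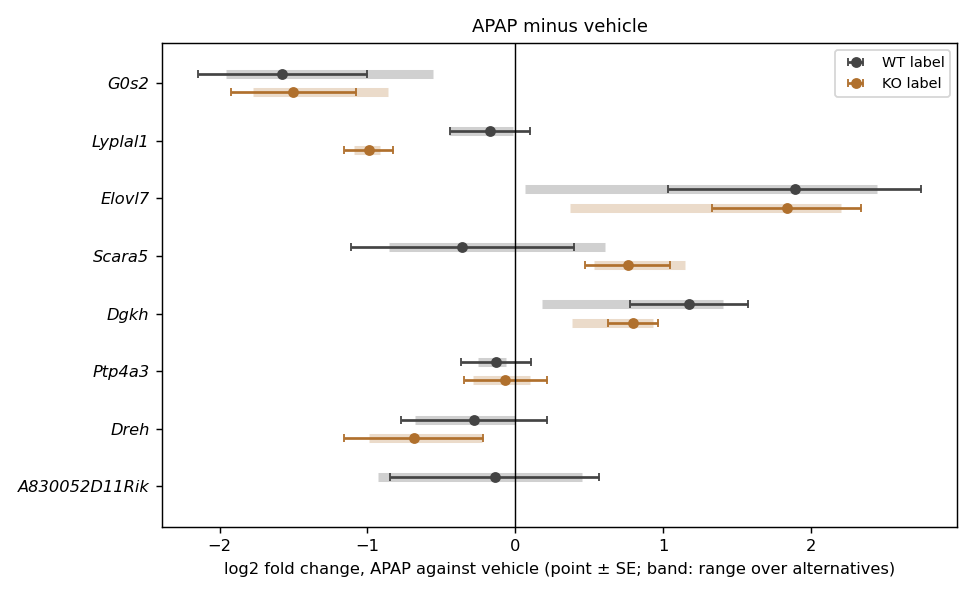
Log2 fold change of each of the 8 genes, APAP against vehicle, in WT livers (grey) and livers labelled KO (orange), as edgeR estimates ± SE from 3 livers per group with bands over the alternatives. *G0s2* lies to the left of 0 and *Elovl7* and *Dgkh* to the right in both labels, and no orange point is drawn for *A830052D11Rik*, which was not tested there.

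Markers of other cells moved with some of these values. In a whole liver, fewer cells of a type and less RNA per cell cannot be told apart. With vehicle, the summed level of 12 stellate cell and fibroblast markers was 156 to 188 CPM in WT livers and 217 to 330 CPM in livers labelled KO, the direction of *Dgkh* and *Elovl7* and opposite to that of the other 6 genes. Of 11 such markers tested, 8 had an unadjusted p under 0.05 and 0 passed the adjusted threshold (edgeR). Over all genes, 1154 of 15262 had such an unadjusted p and 0.0262% passed. After APAP the sums were 189 to 367 CPM in WT livers and 191 to 193 CPM in livers labelled KO, ranges that overlapped, while those of *Dgkh* were apart. In livers labelled KO the sum was lower after APAP, with 4 of 12 markers called lower, against 9.6% of all genes, while *Dgkh* rose. Adipocyte markers summed to at most 0.688 CPM and skeletal muscle markers to at most 0.299 CPM in any liver. *Plin1* and *Lep* were at 0 in 3 of the 4 groups and *Retn* in all 4. After APAP, neutrophil markers summed to 99.0, 5.13 and 13.1 CPM in WT livers 1, 2 and 3. In livers labelled KO they summed to 0.288 to 3.76 CPM, so the groups were apart with and without WT APAP liver 1. That was the direction of the 6 genes higher under the WT label. Of 2 neutrophil markers tested, 2 had an unadjusted p under 0.05 (edgeR), against 536 of all 16174 genes, and 0 passed the adjusted threshold. With vehicle the sums overlapped, at 0.113 to 10.7 CPM in WT livers and 0.253 to 0.817 CPM in livers labelled KO. The part of these markers in the members' values was not tested.

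Within groups, members varied together in some pairs and oppositely in others. Over 28 pairs, the correlation of log2 CPM after group means were taken out (12 livers, Pearson) ranged from -0.69 (*G0s2* with *Elovl7*) to 0.69 (*Lyplal1* with *A830052D11Rik*), with a median of -0.05. Some of these values rested on 1 library: *Lyplal1* with *Dgkh* went from 0.69 to 0.28 without WT APAP liver 1, while *Ptp4a3* with *Dreh* went from 0.48 to 0.69. *Dgkh* with the summed erythroid markers went from 0.82 to -0.16, and with the stellate cell and fibroblast sum from 0.85 to 0.48. These correlations share libraries and depth, and they are given as a description.

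Over all 12 livers, the genes whose log2 CPM pattern was most like that of a member were as follows. The closest to *Lyplal1* was *Marc1* (Pearson r = 0.91), to *G0s2* *Gm38596* (0.88), to *Elovl7* *Caprin2* (0.91) and to *Scara5* *Ikzf4* (0.87), each among about 12154 genes. The closest to *Dgkh* was *Eipr1* (0.90), to *Ptp4a3* *Man2c1* (0.84), to *Dreh* *Gm11249* (0.87) and to *A830052D11Rik* *4732419C18Rik* (0.94). *Ptp4a3* was the third closest gene to *Dreh* (0.84), the case in which one member was among the 3 closest genes of another. *Scara3*, another class A scavenger receptor gene, was the third closest to *Dgkh* (0.84).

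The members do not form a cluster in the genome. In GRCm38 (RefSeq positions, in the build of the deposited table), *Lyplal1* lies at chr1:186087732-186117310 and *G0s2* at chr1:193272160-193273188, both on the minus strand and 7.155 Mb apart. *Scara5* (chr14:65666403-65764826, plus strand) and *Dgkh* (chr14:78559349-78732729, minus strand) are 12.795 Mb apart. *Elovl7* lies at chr13:108214326-108287109, *Ptp4a3* at chr15:73723145-73758766 and *Dreh* at chr17:64767111-64767931, all on the plus strand, and *A830052D11Rik* at chr18:32359057-32378284 on the minus strand. None shares chromosome 5 with *Gna12*. *A830052D11Rik* shares exon sequence on the opposite strand with *Bin1*, with a match of 261 bases, and *Dgkh* shares exon sequence on the same strand with *Gm48998*. The library kit marks strand, but how the counting used strand was not given in the sources used here, so reads of these genes could be split with their partners. *Bin1* itself differed by -0.06 and -0.14 on the log2 scale, WT minus KO label, against 1.67 and 1.66 for *A830052D11Rik*. In the GENCODE vM21 annotation *G0s2* lies within the span of *Lamb3*, on the opposite strand and with no shared exon, while the RefSeq positions of these genes do not overlap.

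None of the tested genes near the members was called between the labels. Of 44 tested genes within 500 kb with vehicle, 0 were called by edgeR, against 0.0262% of all genes. The unadjusted p was under 0.05 for 3 (*Scara3*, *Zfp395* and *Man2a1*), against 1154 of all 15262 genes. Groups did not overlap in CPM for 11.4%, against 14%. Of 48 after APAP, 0 were called, against 0.0309% of all genes. The unadjusted p was under 0.05 for 0, against 536 of all 16174 genes, and 8.33% did not overlap, against 8.73%. So few of all genes were called that 0 among the neighbours was the likely outcome for any set of this size. *Hsd11b1*, 8.1 kb from *G0s2* and the gene for the enzyme that regenerates active glucocorticoid, had log2 differences of 0.03 and 0.41. *Man2a1*, 12.0 kb from *Dreh*, had differences of 0.46 (edgeR adjusted p = 0.608) and 0.05. *Ercc8*, 13.1 kb from *Elovl7*, had -0.13 and -0.09, and *Akap11*, 22.4 kb from *Dgkh*, had 0.03 and -0.16. The largest difference among these neighbours in both treatments was that of *Rps3a3*, 383.5 kb from *Elovl7*. It was 2.03 with vehicle (edgeR adjusted p = 0.747) and 2.53 after APAP (edgeR adjusted p = 0.958), opposite in sign to *Elovl7*. *Lyplal1* had 0 tested genes in its window.

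**Figure D5:**
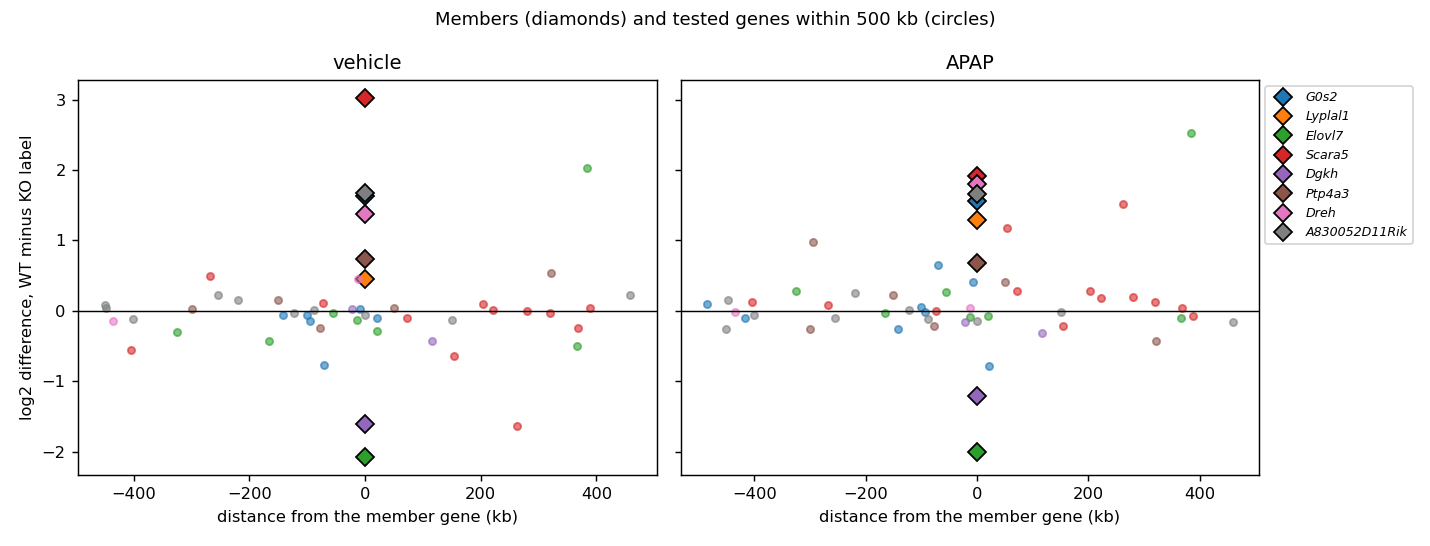
Log2 difference, WT minus KO label, of the 8 genes (diamonds at distance 0) and of the tested genes within 500 kb of each (circles in the same colour), against the distance in kb, with vehicle (left) and after APAP (right). Most of the 44 and 48 neighbours lie near 0, and none passed the adjusted threshold. The highest circle in both panels is *Rps3a3*, in the window of *Elovl7*.

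Genes that work with the members were examined in 9 lists of 137 genes, members left out, which cover lipid droplets and lipolysis, depalmitoylation, fatty acid elongation and desaturation, scavenger receptors and iron uptake, diacylglycerol kinases and lipins, PTP4A phosphatases and magnesium transporters, PPAR-alpha targets, the circadian clock, and insulin response. The lists were chosen with earlier results of these data known. Between the labels, 0 of 127 list genes tested were called by edgeR with vehicle (13 at an unadjusted p under 0.05, 2 by DESeq2) and 0 of 128 after APAP (8 unadjusted, 0 by DESeq2). Of all genes, 1154 of 15262 with vehicle and 536 of 16174 after APAP had an unadjusted p under 0.05 (edgeR), and 0.0262% and 0.0309% were called. DESeq2 called 62 higher and 75 lower with vehicle, and 21 higher and 8 lower after APAP. The clock gene *Bhlhe40*, called by DESeq2 with vehicle, had a log2 difference, WT minus KO label, of 0.52. The median log2 difference of the lists ran from -0.16 (fatty acid elongation and desaturation) to 0.15 (scavenger receptors and iron uptake) with vehicle, against -0.01 over all genes.

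After APAP, 42 of 128 list genes passed in livers labelled KO, 22 higher and 20 lower, against 22.6% of all genes. In WT livers 2 of 127 passed, against 2.05% of all genes, and DESeq2 called 26, against 9.03%. Both edgeR calls were higher: the elongase gene *Elovl3* (2.54 on the log2 scale, edgeR adjusted p = 0.00659) and the clock repressor *Nr1d1* (2.64, edgeR adjusted p = 0.0224). The difference between the labels in these counts was not tested, and WT values that did not pass are given beside those of livers labelled KO.

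Around *G0s2*, 4 of 19 lipid droplet genes passed in livers labelled KO, 3 higher and 1 lower, against 22.6% of all genes. Counts of the other lists below are to be read against that share, with 13% of all genes higher and 9.6% lower. *Plin2*, which coats lipid droplets, rose by 1.90 (edgeR adjusted p = 0.00776) and *Hilpda*, another inhibitor of adipose triglyceride lipase, rose by 2.46 (edgeR adjusted p = 0.0183), while *G0s2* fell. In WT livers *Plin2* had a value of 1.88 (1.47 without WT APAP liver 1) and *Hilpda* of 5.12 (1.57 without it). Around *Lyplal1*, 2 of 8 depalmitoylation genes passed and both fell: the thioesterase genes *Lypla1* by 0.84 (edgeR adjusted p = 0.00478) and *Ppt1* by 0.62 (edgeR adjusted p = 0.0102), with values of -0.24 and -0.17 in WT livers. Around *Elovl7*, 3 of 15 genes passed: *Elovl3* rose by 1.39 (edgeR adjusted p = 0.00967), and 2 fell, among them the desaturase gene *Fads2* (-0.87, edgeR adjusted p = 0.00941), at -0.63 in WT livers.

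Around *Scara5*, 4 of 16 genes passed, against 22.6% of all genes, and all 4 rose, against 13% called higher. Among them were the scavenger receptor gene *Colec12* (0.91, edgeR adjusted p = 0.00282) and the ferritin heavy chain gene *Fth1* (0.97, edgeR adjusted p = 0.00476), at 1.30 and 0.78 in WT livers. Around *Dgkh*, 1 of 8 passed, while DESeq2 called 5, against 27.6% of all genes. Values were positive for 6 of the 8, the direction of *Dgkh*. The gene that passed, the diacylglycerol kinase gene *Dgka*, fell by 0.66 (edgeR adjusted p = 0.00892) and was at -0.29 in WT livers. Around *Ptp4a3*, 3 of 12 passed, 2 higher and 1 lower. The magnesium transporter gene *Cnnm4*, whose product belongs to the family that PTP4A proteins bind, rose by 1.04 (edgeR adjusted p = 0.00526), and *Magt1* fell by 0.72 (edgeR adjusted p = 0.00617), with values of 0.98 and -0.55 in WT livers.

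The 3 wider lists held larger shares of called genes, against 22.6% of all genes in livers labelled KO. These lists were chosen with earlier results of these data known, so the shares are a description and not a test of enrichment. Of 18 PPAR-alpha and fasting genes 8 passed in livers labelled KO, 4 higher and 4 lower, among them *Pdk4* (2.65, edgeR adjusted p = 0.000109), the kinase that restrains pyruvate oxidation. Of 19 clock genes 11 passed, 5 higher and 6 lower, with the output gene *Dbp* at -2.42 (edgeR adjusted p = 8.44e-05) and *Per3* at -1.80 (edgeR adjusted p = 0.00023). Of 15 insulin response and lipogenesis genes 6 passed, 3 higher and 3 lower, among them *Irs2* (1.03, edgeR adjusted p = 0.00392). In WT livers the values were 1.87 for *Pdk4*, -1.56 for *Dbp*, -1.43 for *Per3* and 0.51 for *Irs2*. The hour at which each liver was taken was not given in the sources used here, and the part of clock time or feeding in the members' values was not tested.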

How the data were processed

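Poly(A) RNA of 12 mouse livers (3 per group) was sequenced with a stranded kit. The authors deposited 1 table on mm10 (GRCm38) with raw counts, FPKM and TPM per gene and liver, per the file headers. The submitters' processing notes name Trimmomatic 0.38, HISAT2 2.1.0, Bowtie2 2.3.4.1 and StringTie 2.1.3b, with no role given. FPKM values deposited by the authors were not used. The 8 genes and all lists were chosen with earlier results of these data known.

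Counts were tested with edgeR 4.0.16 in R 4.3.3 (filterByExpr, TMM, quasi-likelihood F test, Benjamini-Hochberg, threshold 0.05) on the 6 livers of each comparison. CPM levels used TMM over 12 libraries. Alternatives were DESeq2 1.42.0, other size factors, no filter, at least 10 counts in every liver, 1 fit of all livers, a replicate block, limma 3.58.1 on quantile-normalized log2(TPM + 1), and leaving out each liver. Exclusion of WT APAP liver 1 from overlaps and correlations was chosen after seeing the data. The tests were checked on simulated data. Text genes are the 8 members, *Gna12*, genes of each list among the 5 of smallest p in a comparison (at most 2 described), the 3 genes most like each member, and neighbours. Genes of shared sequence (at least 100 bases at 90% identity) were sought with BLAST 2.17.0 among transcripts. *Dgkh* matched 939 other genes over part of its transcript and *Ptp4a3* 22. Each library is a separately numbered liver, and no batch is given. One list gene is not reported here.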

Additional observations from a re-analysis of the deposited data

How the results depend on the processing

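The label differences of the 8 genes kept their sign in every alternative that gave a value, but not their size. The genes were chosen for this sign in the same livers, so its stability was partly fixed beforehand. With at least 10 counts in every liver there was no value for *Dreh* and *A830052D11Rik* in both treatments, or for *Elovl7* with vehicle. With limma on log2(TPM + 1), where the added 1 outweighs low levels, the differences with vehicle and after APAP became -0.11 and -0.39 for *Elovl7*, -0.36 and -0.56 for *Dgkh* and 0.48 and 0.41 for *A830052D11Rik*, and that of *Dreh* after APAP 0.80. With vehicle and after APAP, respectively, genes called higher and lower under the WT label numbered 2 and 2, and 2 and 3. They became 62 and 75, and 21 and 8, with DESeq2. With at least 10 counts in every liver 1 gene was called lower with vehicle, and after APAP 0 were higher and 1 lower. With all livers in one fit 0 were called either way in both treatments, and limma called 1 lower with vehicle and 5 lower after APAP. Genes higher and lower after APAP in WT livers (255 and 67) became 877 and 536 with DESeq2, 968 and 555 with all livers in one fit, and 162 higher with limma. In livers labelled KO, 1504 genes lower became 844 with all livers in one fit. Members past the threshold in WT livers rose from 0 to 1 with DESeq2 and with all livers in one fit. In livers labelled KO they went from 4 to 1 with all livers in one fit and to 2 with limma. The liver numbers did not pair the samples (correlations of deviations from -0.26 to 0.05). With the replicate block the calls were 0 and 0 with vehicle, 1 and 0 after APAP, and 61 and 1 for APAP in WT livers.

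Leaving out 1 liver at a time gave 0 to 9 higher and 0 to 7 lower with vehicle, 1 to 4 higher and 0 to 3 lower after APAP, 41 to 316 higher and 0 to 126 lower for APAP in WT livers and 1261 to 1967 higher and 734 to 1401 lower in livers labelled KO, where members past the threshold ran from 2 to 4. They went to 2 without KO APAP liver 3 or without KO vehicle liver 3. In TPM, members apart after APAP went from 4 to 7 without WT APAP liver 1, and the share of all genes apart from 17% to 21.7%.

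Signs that turned were all of values not past the threshold. With limma, *Fabp1* became -0.017 between the labels after APAP, and with the replicate block *Scara5* became 0.064 for APAP in WT livers. The other turns came from leaving out 1 liver at a time, with these lowest and highest values. Between the labels with vehicle they were -0.12 and 1.58 for *Slc41a1* and -0.36 and 0.042 for *Gna12*, with the turn without WT vehicle liver 2. Between the labels after APAP they were -0.38 and 2.29 for *Igfbp1*, -0.32 and 4.23 for *Hilpda*, -0.11 and 0.66 for *Ptp4a1* and -0.30 and 0.24 for *Gna12*, with the turn without WT APAP liver 1. For APAP in WT livers they were -0.86 and 0.60 for *Scara5*, -0.68 and 0.00097 for *Dreh* and -0.93 and 0.45 for *A830052D11Rik*. For APAP in livers labelled KO they were -0.29 and 0.099 for *Ptp4a3*. The causes were not tested. Depth limits *Elovl7*, *Dreh* and *A830052D11Rik*, which had under 60 counts in most livers.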
